A study of Rattus norvegicus with 10 samples.

Results

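Of the 1447 annotation rows that carry a pseudogene biotype in this rat round spermatid series, 247 (17.1%) had a mean of at least 1 FPKM over the 10 libraries and are described here. FPKM is fragments per kilobase of gene length, scaled to library depth. Member positions are as the files give them, whose genome build the sources used here do not name. The members were chosen by this measured mean, so their being expressed is how they were selected and not a finding. The whole table held 32545 rows, of which 12985 of any biotype reached the same mean and were tested. By biotype the members were 146 rows called pseudogene, 90 processed pseudogenes, 10 unprocessed pseudogenes and 1 transcribed processed pseudogene. Of the 1200 pseudogene rows that were not members, 521 were listed at 0 in every library. At the limit, the lowest members were AC103024.2 with a mean of 1.01 FPKM, Rn60_7_1412.3 with 1.01 and Rn60_2_0457.1 with 1.02. The highest pseudogene rows outside it were AABR07044273.1 with 0.972, AABR07025301.1 with 0.963 and AABR07053065.1 with 0.961.

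The samples were round spermatids, postmeiotic haploid cells on their way to becoming sperm, from wild-type Brown Norway rats. Of the 10 libraries 5 came from young animals of 4 to 6 months and 5 from aged animals of 18 to 20 months, and no other treatment separated the groups. Testis cells were separated by sedimentation on a STA-PUT gradient, which enriches a cell type by size and leaves some other cells. The labels number the replicates 1 to 5 in each group and do not say whether each came from its own animal, so p-values measure the spread between these libraries.

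A pseudogene is a gene copy that is thought to have lost its protein-coding function. A processed pseudogene, or retrocopy, arises when an mRNA is copied back into DNA and lacks the introns of its parent gene, while an unprocessed pseudogene comes from duplication of the DNA. Some retrocopies keep an open reading frame and are transcribed, often in the testis, and are then called retrogenes. Because a young copy is nearly identical to its parent, a short read may align to either, so levels of such rows are uncertain.

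Some member symbols belong to genes that RefSeq lists as coding. By symbol, gene number or synonym, 38 members matched an entry of the RefSeq table for assembly GRCr8. For 32 of them the entry was on the same chromosome, and there RefSeq called 17 protein-coding and 15 pseudogene. The remaining 6 matched an entry on another chromosome and were not treated as that locus. Both neighbouring coding genes were found in RefSeq for 21 of the 32. Of these, the entry lay between the same neighbours for 17 members, 9 protein-coding and 8 pseudogene in RefSeq, and elsewhere for 4. The 3 most abundant members with a coding RefSeq entry between the same neighbours and a RefSeq promoter were Sephs2, Rbmxl2 and Ado. Their 250 bases before the RefSeq start are shown because these rows, listed as pseudogenes in the files, each have a coding entry and a start of their own in RefSeq. Capitals mark matches, on either strand, to the cyclic AMP response motif core TGACG or to the CCAAT box, and TATAAA was searched too. The windows lie on GRCr8 at chr1:191325956-191326205 (minus strand), chr1:170528320-170528569 (plus) and chr20:21043444-21043693 (plus).
Sephs2: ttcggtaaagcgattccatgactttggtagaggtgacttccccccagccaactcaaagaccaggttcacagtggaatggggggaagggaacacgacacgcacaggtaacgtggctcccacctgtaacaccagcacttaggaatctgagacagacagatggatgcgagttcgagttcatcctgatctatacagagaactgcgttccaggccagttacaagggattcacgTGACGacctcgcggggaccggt
Rbmxl2: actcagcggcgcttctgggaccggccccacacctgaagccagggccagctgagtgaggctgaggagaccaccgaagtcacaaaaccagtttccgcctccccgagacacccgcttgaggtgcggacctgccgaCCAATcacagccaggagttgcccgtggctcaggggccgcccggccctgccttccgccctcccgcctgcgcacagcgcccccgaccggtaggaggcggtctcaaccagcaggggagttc
Ado: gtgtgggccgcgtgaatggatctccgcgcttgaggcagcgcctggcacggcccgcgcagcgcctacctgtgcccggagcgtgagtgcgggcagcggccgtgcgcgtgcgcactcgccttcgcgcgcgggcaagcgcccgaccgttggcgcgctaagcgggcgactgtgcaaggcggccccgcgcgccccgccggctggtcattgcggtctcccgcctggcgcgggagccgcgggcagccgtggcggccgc
Sephs2 held 1 TGACG match and no CCAAT or TATAAA match. Rbmxl2 held 1 CCAAT match only, and Ado held no match to any of the 3 motifs. Among 33469 RefSeq windows of the same length, 18.2% held TGACG, 34.0% held CCAAT and 12.9% held TATAAA, counting both strands. CpG dinucleotides numbered 13 in Sephs2, 19 in Rbmxl2 and 44 in Ado, against a median of 5 over all windows. These matches describe letters in the window and not binding.

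Recovered fragments per library, worked back from the FPKM values, numbered 14488222 to 18203223. The members took 0.561% to 0.643% of the fragments and 1.13% to 1.29% of the summed FPKM of a library. Round spermatid markers (Prm1, Prm2, Tnp1, Tnp2, Acrv1, Spaca1, Acr, Tssk6 and Odf1) were all detected, and their summed FPKM was 23537 to 37904 in young and 23361 to 30474 in aged libraries. Markers of other testis cells were present too. The 7 Leydig cell markers summed to 5.13 to 8.28 FPKM in young and 10.8 to 120.2 in aged libraries, and the 9 macrophage markers to 9.75 to 20.7 and 14.6 to 96.1. The 8 peritubular markers summed to 64.2 to 93.8 and 97.0 to 213 FPKM. Aged replicates 2 and 1 were the highest for all 3 lists. The spermatocyte list ran the other way. Its median aged minus young difference on the log2(FPKM + 1) scale was -0.23, and 0 of its 10 genes were above 0. The part of these cells in the levels of the members was not tested.

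Most members were low and a few were very abundant. The median member had a mean of 4.83 FPKM, against 8.10 over all genes tested, and a mean of 61.3 recovered fragments per library. Means of 100 FPKM or more were reached by 12 members, 10 FPKM or more by 83, and 50 lay between 1 and 2. The 12 most abundant held 57.0% of the members' summed mean FPKM, and LOC100360645 alone held 25.9%. All 10 libraries listed a value above 0 for 246 members.

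**Figure D1:**
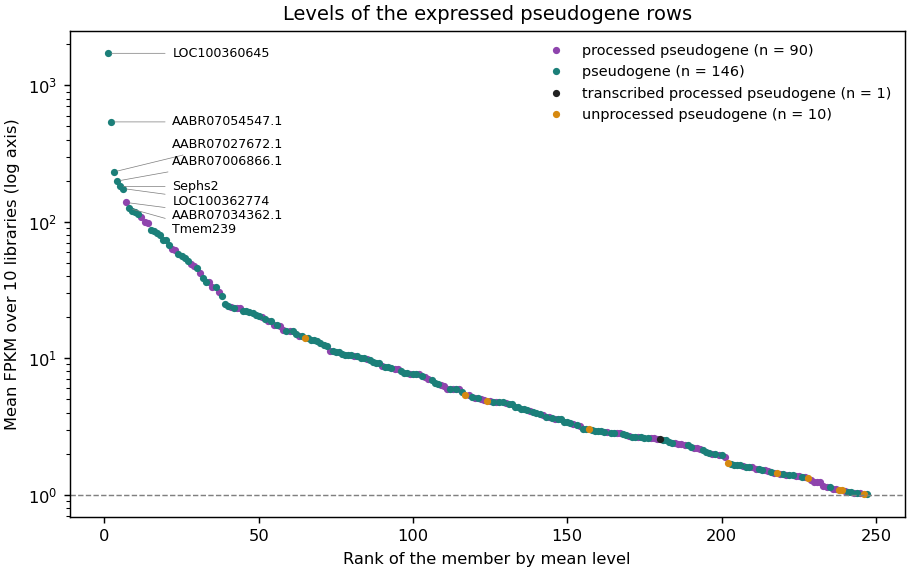
Mean FPKM over the 10 libraries (log axis) of each of the 247 members against its rank, with 1 point per member coloured by biotype and the dashed line at 1 FPKM. LOC100360645 stands above 1000 and AABR07054547.1 above 500, while the median is 4.83.

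LOC100360645, described in the files as ubiquitin B-like (ENSRNOG00000042271, chr10:48881049-48881881, plus strand), was the most abundant member. Ubiquitin is the small protein whose chains mark others for the proteasome. Its FPKM was 1554, 1627, 1653, 1746 and 1644 in young replicates 1 to 5, and 2074, 1628, 1691, 1792 and 1750 in aged replicates 1 to 5. The groups overlapped, with aged replicate 1 the highest library. The aged minus young difference on the log2(FPKM + 1) scale was 0.12 (SE 0.06), with unadjusted p = 0.0998 and adjusted p = 0.474. The files have no row named Ubb. In RefSeq the Ubb gene lies between Cenpv and Trpv2, the coding neighbours of this row, while the entry with its gene number (Ubbl2, a pseudogene) lies elsewhere on the chromosome. Whether the row holds Ubb transcripts was not tested.

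AABR07054547.1 (chr3:159452433-159452835, minus strand) came next, with 400 to 560 FPKM in young and 510 to 725 in aged libraries and overlapping groups. It lies between Mybl2 and Tox2, where RefSeq lists the coding gene Gtsf1l, of a gametocyte-expressed family, and the files have no row of that name. AABR07027672.1 followed with 217 to 236 FPKM in young and 228 to 244 in aged libraries, and AABR07006866.1 with 174 to 256 and 168 to 217. RefSeq lists Frat1 between the neighbours of AABR07006866.1, Arhgap19 and Frat2. These positions are facts of order only, and the identity of the rows was not tested. For 183 members both neighbouring coding genes were found in RefSeq. In 51 members RefSeq lists 1 named coding gene between them that has no row in the files.

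A further 4 of the 12 most abundant members carry a gene symbol or a description. Sephs2 encodes a selenophosphate synthetase, which makes the selenium donor for selenoproteins and itself contains selenocysteine, read from a UGA codon. Its FPKM was 184, 191, 187, 188 and 181 in young and 163, 176, 178, 187 and 182 in aged replicates, and the groups overlapped. Tmem239 ranged from 107 to 174 in young and 99.5 to 132 in aged libraries. Ddi1, a relative of the yeast DNA-damage inducible shuttle protein, ranged from 99.8 to 129 and 110 to 132. The ranges in young and aged libraries overlapped for 3 further rows, AABR07034362.1 at 128 to 156 and 129 to 148, AC109958.1 at 112 to 122 and 110 to 129, and AABR07036374.1 at 99.3 to 132 and 107 to 125 FPKM. LOC100362774 ranged from 161 to 217 and 131 to 202, with a difference of -0.24 (SE 0.11) and unadjusted p = 0.0580. Of the 12 most abundant members, only AABR07024825.1, a processed pseudogene of 270 bases, had unadjusted p under 0.05. Its values were 99.3 to 130 in young and 97.7 to 109 in aged libraries, a difference of -0.17 (SE 0.07) with adjusted p = 0.384. Its unadjusted p was above 0.05 when any 1 of 5 libraries (young replicates 1, 3 and 5, aged replicates 1 and 4) was left out.

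The rows differed in their gene models. In 89 of the 90 processed pseudogenes the annotated span equalled the counted length, a single uninterrupted block. In 135 of the 146 rows called pseudogene the span exceeded the counted length by 1 to 30 bases, and no member of another biotype did so. Median counted length was 729.5 bases for rows called pseudogene and 580.5 for processed pseudogenes, and their median levels were 6.71 and 3.97 FPKM. Another gene row overlapped 56 members, 36 on the opposite strand only, 19 on the same strand only and 1 on both. Overlap was judged on whole annotated spans, introns included, and overlap of exons was not tested. No source used here says whether counting used strand. How far fragments of these members and of the overlapping gene were kept apart is therefore not known.

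The symbol or description of 24 members names a protein-coding gene that also has a row, taken here as the named parent. Per length the parent was higher in 21 of the 24. Rps28, a processed copy on chromosome 16 of a small ribosomal subunit gene, had a mean of 62.5 FPKM against 97.2 for its parent. LOC100360491 (ribosomal protein L13-like) had 33.4 against 304 for Rpl13, and LOC100912427 (like Ybx1, an mRNA-binding protein abundant in germ cells) had 30.7 against 825. Among copies of translation initiation factor genes, Eif3i-ps1 had 15.8 against 16.9 for Eif3i, and LOC100911693 had 15 against 53.2 for Eif4g1.

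The 3 exceptions were of different kinds. Rbmxl2, an autosomal relative of the X-linked RNA-binding gene Rbmx that is known for a role in male germ cell splicing, ranged from 54.2 to 84.1 FPKM over the 10 libraries, and Rbmx from 0.655 to 1.57. Dbf4, whose product activates the Cdc7 kinase at DNA replication, has an unprocessed pseudogene row with 4.83 FPKM and a coding row with 4.75. In RefSeq the coding gene Dbf4 lies between Slc25a40 and Adam22, the neighbours of the row called pseudogene. Which of the rows holds transcripts of the gene was not tested. For LOC100363537 (ribosomal protein L10a-like, 1.57 to 5.91 FPKM) the parent Rpl10a is listed at 0 in every library, as are a row each of Rpl23a and Rpl39. Ribosomal protein genes have many copies, and the share of their fragments assigned to copies was not tested.

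**Figure D2:**
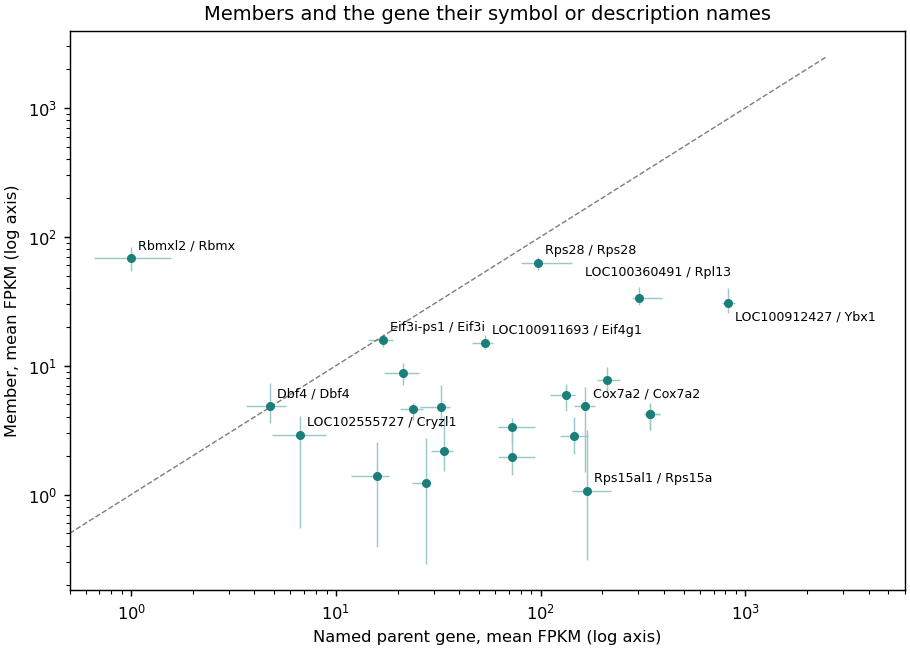
Mean FPKM of 23 members (vertical, log axis) against the protein-coding gene their symbol or description names (horizontal, log axis), with bars from the lowest to the highest of 10 libraries and a dashed line of equal level. Rpl10a, listed at 0, is left out. Rbmxl2 is far above the line, at 68.1 against 0.999, and 21 of the points lie below it.

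The less abundant members named next had 1.22% to 41.2% of the level of their parents. LOC100360791 had 7.70 FPKM against 210 for Tpt1, a translationally controlled growth-related protein, and LOC300249 had 5.95 against 134 for Rpl4. Cox7a2, a copy of a cytochrome c oxidase subunit gene, had 4.83 against 165. LOC100362999 had 4.80 against 32.6 for St13, an Hsc70 co-chaperone, and Uba2-ps1 had 4.61 against 23.8 for Uba2, a SUMO-activating enzyme subunit. The copies of the glycolytic enzyme gene Eno1 called LOC685431, on chromosomes 4 and X, had 4.25 and 4.19 against 344. Styxl2, named for a pseudophosphatase relative of Styx, had 8.74 against 21.2 for Styx. Of these 24 members only LOC100360491 and Dbf4 had unadjusted p under 0.05 in limma. Of the 22 parents tested only Tpt1 did (difference 0.15, SE 0.06, adjusted p = 0.370). Over all genes tested the share at that threshold was 11.9%.

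The design asks whether age changed round spermatid expression. No member passed an adjusted p of 0.05 in limma, and neither did any of the 12985 genes tested (0%). The smallest adjusted p among members was 0.280. At an unadjusted p under 0.05 there were 37 members, 15% of the 247, against 11.9% of all genes tested. Of these, 13 were higher in aged libraries (5.26%, against 5.54% of all genes tested) and 24 were lower (9.72%, against 6.35%). Whether the members differ from other genes in this was not tested. The median aged minus young difference was -0.01 for the members and -0.02 for all genes tested, and 47.0% and 45.5% were above 0. Absolute differences were under 0.2 in 177 members and over 1 in 2.

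The values of the 5 aged and 5 young libraries did not overlap for 7 members (3 higher and 4 lower in aged), against 2.6% of all genes tested. With 1 library left out the count was 8 to 14, against 3.36% to 7.96% of all genes tested. It reached 14 without aged replicate 3, 13 without young replicate 2 or without aged replicate 2, and 12 without young replicate 5. Leaving out those libraries moved the share over all genes tested to 4.86%, 3.64%, 3.45% and 7.96%.

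**Figure D3:**
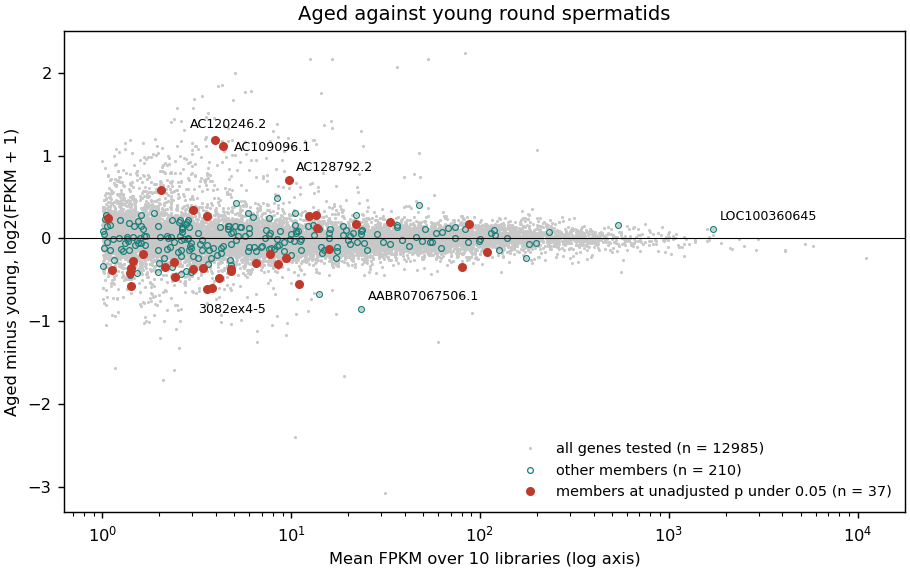
Aged minus young difference in log2(FPKM + 1) against mean FPKM (log axis) for all 12985 genes tested (grey) and the 247 members (coloured, filled where unadjusted p was under 0.05). The 37 filled points spread on both sides of 0, with AC120246.2 at 1.18 the highest and AABR07067506.1 at -0.86 the lowest member, the latter not filled.

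Spread between libraries was larger for the members than for all genes tested, with median within-group SDs of 0.23 and 0.14 on the log2(FPKM + 1) scale. Depth moved with it. For means of 30 to 100 recovered fragments per library the median SD was 0.24 in 77 members and 0.20 in 2433 other genes, and for 300 to 1000 fragments it was 0.13 in 25 members and 0.12 in 2798 others.

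The member with the smallest p was 3082ex4-5 (chr20:2493695-2494007, plus strand), a processed pseudogene of 313 bases that RefSeq also calls a pseudogene and places between Trim26 and Trim39 among class I histocompatibility pseudogenes. Its FPKM was 5.30, 3.99, 4.81, 5.60 and 4.35 in young replicates and 3.10, 2.34, 3.32, 2.47 and 2.94 in aged replicates. All 5 aged values lay below all 5 young values. The difference was -0.60 (SE 0.10), with unadjusted p = 0.000108 and adjusted p = 0.280. It rests on 12 to 28 recovered fragments per library.

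AC095278.1 (chr10:89509744-89510322, plus strand), a processed pseudogene, also had groups that did not overlap. Its values were 5.11, 4.12, 4.14, 6.81 and 4.81 FPKM in young and 2.88, 3.27, 3.88, 3.50 and 2.76 in aged libraries. The difference was -0.48 (SE 0.12, adjusted p = 0.319). The other members lower in aged libraries without overlap were AABR07028027.1, inside Hecw1 on the same strand, at 7.66 to 8.97 against 6.70 to 7.61, and AABR07065420.1 at 1.62 to 2.12 against 1.35 to 1.59. AABR07065420.1, with a mean under 2 FPKM, was named after its values were seen, to complete the count.

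A further 4 members were among the 6 with the smallest p in this direction, with overlapping groups. AABR07070238.1 was at 2.63 to 3.34 FPKM in young and 1.46 to 2.71 in aged libraries (difference -0.47). AABR07054247.1, the most abundant of them, was at 77.6 to 97.2 and 59.1 to 83.5 (difference -0.34, adjusted p = 0.319). AABR07058899.1, which overlaps Slc11a2 on the opposite strand, was at 7.94 to 10.7 and 6.63 to 8.20 (difference -0.30), and Rn60_2_2281.5 at 2.82 to 4.18 and 1.90 to 2.83 (difference -0.37). In each of the 4, no more than 2 of the 5 aged libraries reached into the young range. The Dbf4 row called pseudogene, whose neighbours flank the coding gene Dbf4 in RefSeq, had 4.10 to 7.30 and 3.60 to 4.51 (difference -0.40). The Dbf4 row that the files call coding differed by -0.01 (SE 0.10). The test of the difference between the 2 rows was not run.

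**Figure D4:**
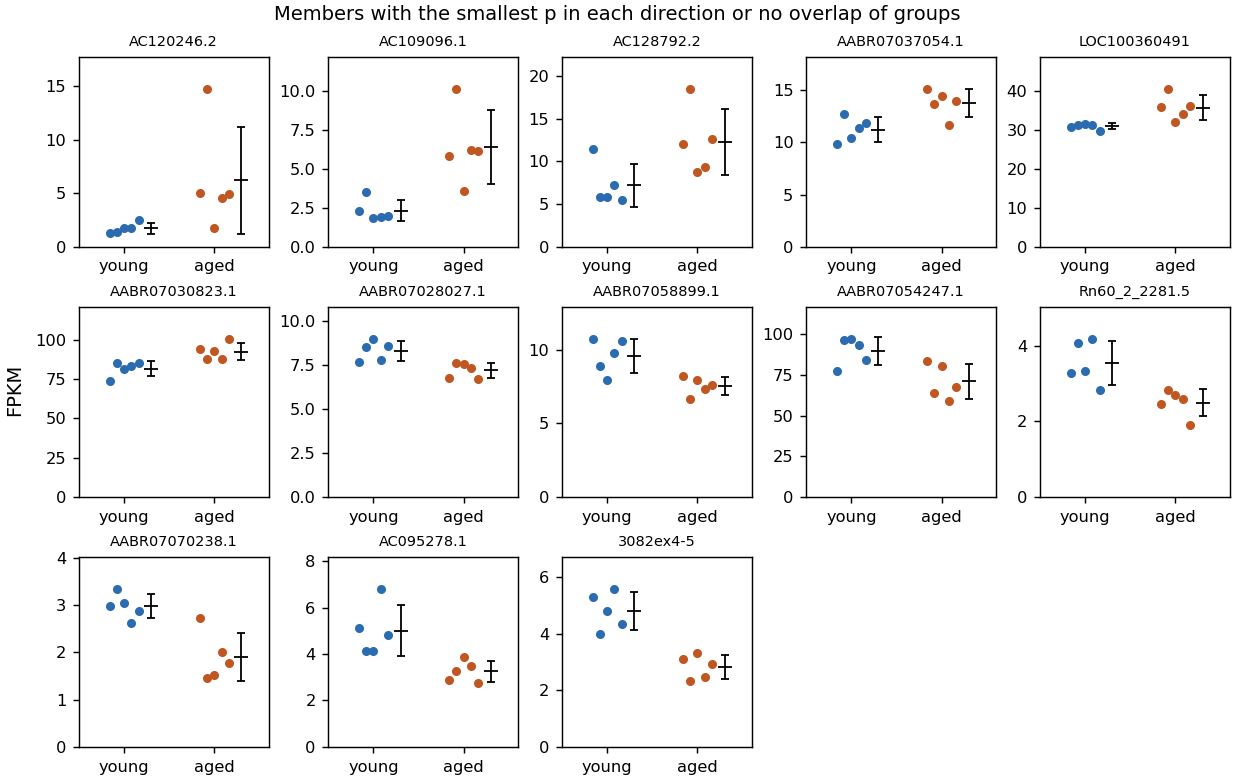
FPKM of each library for the 13 members with the smallest unadjusted p in each direction or with groups that did not overlap and a mean of at least 2 FPKM, ordered by difference, with a bar for the mean and SD of 5 libraries. AC109096.1, LOC100360491 and AABR07030823.1 lie wholly higher in aged libraries, and AABR07028027.1, AC095278.1 and 3082ex4-5 wholly lower.

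Among members higher in aged libraries, AC109096.1 (chr1:220836092-220836504, minus strand) had the smallest p. Its FPKM was 2.30, 3.52, 1.86, 1.94 and 2.01 in young and 5.85, 10.2, 3.58, 6.23 and 6.19 in aged replicates. The lowest aged value, in replicate 3, was just above the highest young value. The difference was 1.12 (SE 0.21), with adjusted p = 0.316, and 0.92 without aged replicates 1 and 2. Fragments numbered 7 to 43 per library. Tpm2, a tropomyosin gene on the peritubular list, was among the genes with the most similar pattern over the 10 libraries (r = 0.90, 7823 genes compared). The peritubular list summed to 117, 213, 97.0, 111 and 104 FPKM in aged replicates 1 to 5, so the highest and the lowest aged library were the same as for AC109096.1. Its part in the difference was not tested. RefSeq places the coding gene Ccdc85b between the neighbours Fosl1 and Fibp, and the files have no row of that name.

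AC120246.2 (chr19:25774143-25775659, minus strand) had the largest difference, 1.18 (SE 0.36, unadjusted p = 0.00671, adjusted p = 0.319). Its FPKM was 1.25, 1.35, 1.77, 1.79 and 2.47 in young and 4.98, 14.8, 1.77, 4.58 and 4.89 in aged replicates. Aged replicate 3 lay within the young range and the other 4 lay above it. Without aged replicate 2 the difference was 0.84 (SE 0.23), and without replicates 1 and 2 it was 0.74 (SE 0.25, adjusted p = 0.606). RefSeq lists the immediate-early gene Ier2, with a span of 1525 bases, between its neighbours Cacna1a and Nacc1, and the span of this row is 1517 bases. For the other genes placed in this way the RefSeq span was longer than that of the row. The spans were 1706 and 833 bases for Ubb, 2696 and 403 for Gtsf1l and 2549 and 842 for Frat1. They were 1016 and 413 for Ccdc85b and 4783 and 1760 for Foxj1. The files have no row named Ier2, and the identity of AC120246.2 was not tested.

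Over the 10 libraries the log2 pattern of AC120246.2 was most like that of Junb (r = 0.98), among 7823 genes averaging 5 FPKM or more. Cst3, Rhob and Zfp36 had r = 0.98 too, and Myl9 had 0.97. Junb and Zfp36 are early response genes, and Junb had 2.93 to 4.91 FPKM in young and 4.53 to 28.8 in aged libraries. These 5 genes were picked after their values were seen. In the aged replicates the Leydig cell list summed to 53.5, 120.2, 10.8, 14.8 and 16.8 FPKM and the macrophage list to 40.1, 96.1, 14.6, 15.3 and 15.3. Aged replicate 2 was the highest for both lists and for AC120246.2. It was the highest for the peritubular, Sertoli, endothelial and erythroid lists too. Both the Leydig cell and macrophage lists were higher in aged replicate 1 than in 4 and 5, where AC120246.2 had 4.98, 4.58 and 4.89 FPKM in turn. The part of these cells in the difference was not tested.

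AC128792.2 (chr1:101449902-101450071, plus strand, 165 bases counted) lies 72 bases from Ftl1, a ferritin light chain gene on the other strand. Its values were 11.5, 5.86, 5.81, 7.20 and 5.50 FPKM in young and 12.1, 18.5, 8.74, 9.38 and 12.7 in aged replicates. Young replicate 1 reached into the aged range. The difference was 0.70 (SE 0.21, adjusted p = 0.319) and 0.49 without aged replicates 1 and 2, from 14 to 50 fragments per library. Ftl1 had 32.6 to 43.7 and 34.1 to 86.3 FPKM, with aged replicate 2 the highest for both rows. The Leydig cell marker Cyp17a1, an androgen synthesis enzyme, was among the genes with the most similar pattern to AC128792.2 (r = 0.87, 10 libraries, 7822 genes compared). Aged replicate 2 was the highest and aged replicate 3 the lowest aged library for AC128792.2 and for the Leydig cell list. The part of these cells in the difference was not tested.

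LOC100360491, the ribosomal protein L13-like row, was at 30.8, 31.4, 31.6, 31.5 and 29.8 FPKM in young and 35.9, 40.7, 32.2, 34.3 and 36.2 in aged libraries. The groups did not overlap, and the difference was 0.20 (SE 0.06, adjusted p = 0.319). Rpl13 itself differed by 0.10 (SE 0.08). Of 82 rows of cytosolic ribosomal protein genes tested, 10 were higher (12.2%, against 5.54% of all genes tested) and 1 was lower (1.22%, against 6.35%) in aged libraries at unadjusted p under 0.05. None passed the adjusted threshold, and the median difference was 0.09 against -0.02 over all genes tested. Rpl30 (difference 0.14) was among the 10, as was a low row of Rpl36al (means 0.661 FPKM in young and 4.30 in aged libraries, difference 1.58). The other Rpl36al row differed by 0.15 (SE 0.18). The 76 symbols of the list had 97 rows, so some genes have more than 1.

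AABR07030823.1 (chr10:105282095-105283854) was the most abundant member without overlap, at 73.6 to 85.4 FPKM in young and 87.5 to 101 in aged libraries. The difference was 0.18 (SE 0.05, adjusted p = 0.319). RefSeq lists Foxj1, the regulator of motile cilia genes, between its neighbours Exoc7 and Rnf157, and its identity was not tested. AABR07037054.1, on chromosome X, was at 9.79 to 12.7 and 11.7 to 15.1 FPKM, and its groups overlapped (difference 0.27, SE 0.08, adjusted p = 0.319).

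Among the members, AABR07067506.1 varied most over the 10 libraries. This row (chr9:49795475-49795936, minus strand), a processed pseudogene of 462 bases, had 36.5, 34.3, 24.0, 3.93 and 40.0 FPKM in young and 24.8, 2.11, 29.2, 2.83 and 36.0 in aged replicates. Young replicate 4 and aged replicates 2 and 4 were thus below 4 FPKM and the other 7 libraries at 24.0 or more. No library lay between. The age difference was -0.86 (SE 0.82) with unadjusted p = 0.318.

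Across the 7822 genes compared with it, Arpc5l was among those with the most opposite pattern. Arpc5l encodes a subunit of the Arp2/3 complex, which nucleates branched actin, and its row lies on chromosome 3. Its FPKM was 33.4, 29.9, 29.3, 40.0 and 24.1 in young and 24.2, 39.6, 27.5, 42.4 and 28.4 in aged replicates. The 3 libraries low in AABR07067506.1 were the 3 highest in Arpc5l. Added together, the recovered fragments of both rows numbered 42.1 to 59.0 per 1000000, with a coefficient of variation of 9.03%, against 64.0% for AABR07067506.1 and 20.9% for Arpc5l alone. RefSeq lists the pseudogenes Arpc5l-ps1 and Hnrnpa1-ps34 inside its model of Gpr45, a neighbour of the row, and Hnrnpa1 itself ranged only from 20.5 to 23.9 FPKM. This pairing was chosen after its values were seen, and the assignment of fragments between the rows was not tested.

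A second member did the same with a parent that the files name. LOC102555727 (chr4:9809606-9810649, plus strand) is described as quinone oxidoreductase-like protein 1-like, and RefSeq calls it Cryzl1-ps1 between the same neighbours, Reln and Slc26a5. Its FPKM was 3.58, 0.546, 3.55, 4.09 and 3.61 in young and 2.59, 3.63, 3.21, 0.686 and 3.72 in aged replicates. Young replicate 2 and aged replicate 4 were below 1 FPKM and all others above 2.5. Cryzl1 had 6.54, 8.95, 7.19, 6.06 and 6.81 FPKM in young and 4.86, 5.44, 7.13, 8.04 and 5.78 in aged replicates, with the same 2 libraries highest. Added together, the fragments had a coefficient of variation of 10.8%, against 43.7% and 18.4% for the rows alone. This pair too was picked out after its values were seen. Such sums were not worked out for the other members with a named parent, and the assignment of fragments was not tested. The libraries low in the 2 pseudogenes were not the same, with aged replicate 4 alone shared.

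**Figure D5:**
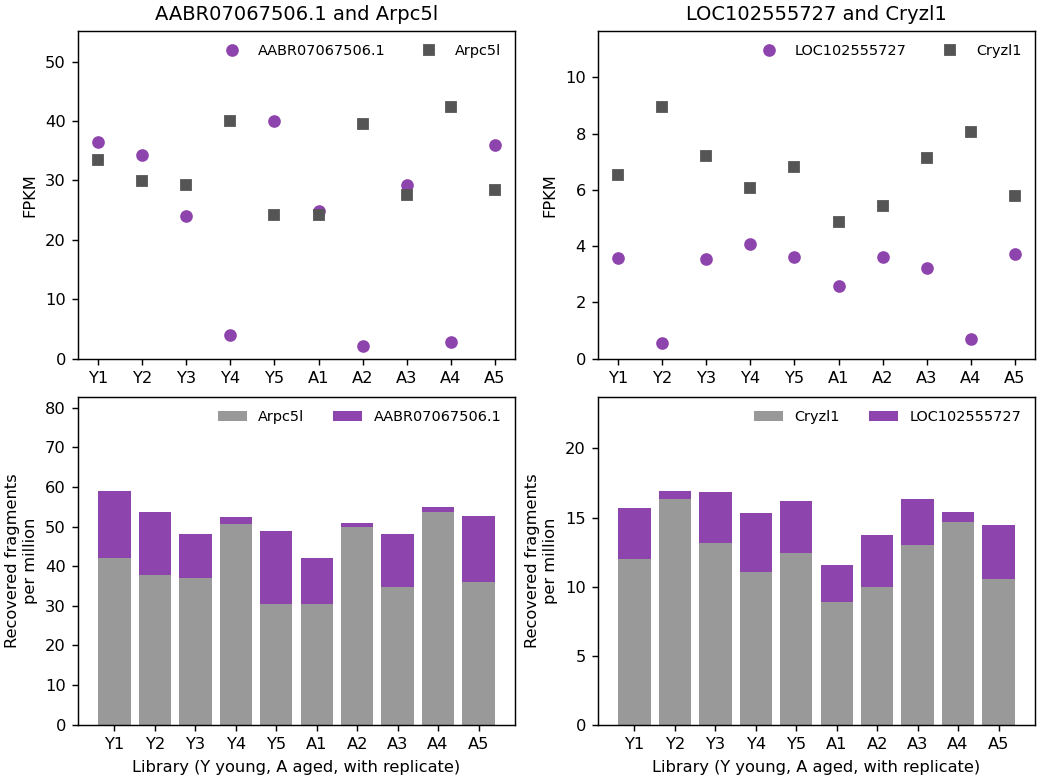
FPKM (top) and recovered fragments per 1000000 (bottom, stacked) of AABR07067506.1 with Arpc5l (left) and of LOC102555727 with Cryzl1 (right), with 1 mark or bar per library. The libraries low in the pseudogene row are the highest in the coding row, and the stacked bars vary by 9.03% and 10.8%.

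The 10 members with the largest SD over the libraries also included AC120246.2 and AC109096.1, both described with the age comparison. The other 6 had unadjusted p from 0.0684 to 0.856. Rn60_5_0814.32, inside LOC259244, was the only member listed at 0 in any library. It was at 0 in young replicates 1, 4 and 5 and aged replicates 3 and 5, and at 1.45 to 2.60 FPKM in the other 5, from at most 9 fragments. Rn60_X_0718.1, opposite Tex11, was at 0.409 in young replicate 4 (1 fragment) and 3.77 to 8.95 elsewhere. AABR07042821.1 was at 9.24 to 28.7 in young and 6.10 to 15.5 in aged libraries (unadjusted p = 0.0684). AC126148.1, inside Naa40 on the same strand, ranged from 0.433 to 2.63 in young and 0.271 to 3.36 in aged libraries, AABR07025328.1 from 0.949 to 6.42 and 1.48 to 5.40, and AABR07027010.1 from 0.860 to 4.07 and 1.02 to 5.15.

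The X chromosome, which is silenced during meiosis and is known as a source of retrocopies, carried 25 of the 247 members (10.1%) and 396 of the 12985 genes tested (3.05%). It also carried 199 of all 1447 pseudogene rows (13.8%). Of its 157 processed pseudogenes 20 were members (12.7%), and of the 380 on other chromosomes and scaffolds 70 were (18.4%). Of the 25 X-linked members 15 were higher in aged libraries and 1, AABR07037054.1, had unadjusted p under 0.05 (4% higher, 0% lower). Of the 396 X-linked genes tested, 59 were higher (14.9%) and 9 lower (2.27%) at that threshold. The members' median difference was 0.04, and that of the 396 genes was 0.08, with 69.9% above 0.

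Transcripts with a premature stop codon are removed by nonsense-mediated decay, so its genes were examined beside the members. Of the 20 genes of the list 19 were tested, and none passed the adjusted threshold. At unadjusted p under 0.05 Upf3b was higher in aged libraries (17.0 ± 1.10 against 19.6 ± 1.18 FPKM, SD, n = 5, difference 0.20, SE 0.06, limma adjusted p = 0.319) and the kinase gene Smg1 was lower (31.4 ± 2.71 against 26.9 ± 1.38, difference -0.21, SE 0.06). Each was 5.26% of the genes tested from the list, against 5.54% higher and 6.35% lower over all genes tested. The median difference over the list was -0.05, against -0.02 over all genes tested. Of the 19, 5 were above 0, against 45.5% of all genes tested.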

How the data were processed

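The authors deposited 1 table of FPKM values per library. Per the submitters' processing notes, HISAT2 2.0.5 and featureCounts 1.5.0-p3 were used, and neither a genome build nor a strand setting is named there. The labels name total RNA and a SMARTER mRNA-seq kit. Whole fragments were recovered by dividing FPKM times gene length by its smallest step, and 100% of values came out whole within 0.001. Genes averaging 1 FPKM or more were tested with limma (version 3.58.1, trend) on log2(FPKM + 1), which understates changes of low genes, with Benjamini-Hochberg adjustment over all 12985. The script was tested on simulated data. Alternatives were another pseudocount, filter, scaling, robust moderation, voom, a replicate block and leaving out libraries. The members and gene lists were chosen with earlier results of these data known. Named members were the 12 most abundant, the 6 with the smallest p per direction and those without overlap (mean at least 2 FPKM), the 10 most variable, 15 with a named parent and 3 on each side of the limit. The lists were round spermatid, spermatocyte, spermatogonia, Leydig, peritubular, Sertoli, macrophage, endothelial and erythroid markers, nonsense-mediated decay and ribosomal proteins. Marker sums not given in the report were, in young and aged libraries, 24.5 to 32.5 and 31.7 to 132 FPKM (Sertoli), 1.03 to 1.14 and 1.78 to 3.58 (endothelial), 0.440 to 1.98 and 1.74 to 6.91 (erythroid), 144 to 191 and 115 to 163 (spermatocyte) and 42.1 to 61.4 and 45.2 to 51.4 (spermatogonia). Promoter sequences are from RefSeq (GRCr8).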

Additional observations from a re-analysis of the deposited data

Results flagged for a closer look

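Among the 100 groups of 5 libraries looked at for 50 named members, 7 held a library that stood apart from the other 4, and chance flags about 1 in 20. In AC120246.2, aged replicate 2 was at 14.8 FPKM against 1.77 to 4.98 in the other aged libraries. In LOC102555727, young replicate 2 was at 0.546 against 3.55 to 4.09, the library in which Cryzl1 was highest. In AC109096.1, young replicate 2 was at 3.52 against 1.86 to 2.30, and in AC128792.2 young replicate 1 was at 11.5 against 5.50 to 7.20. In AABR07054547.1, aged replicate 5 was at 725 against 510 to 550. In LOC100912427, young replicate 3 was at 40.3 against 27.4 to 30.7. In Rn60_2_0457.1, near the limit of membership, young replicate 1 was at 1.87 against 0.589 to 0.928.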

How the results depend on the processing

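There were 37 members at unadjusted p under 0.05 (15%, against 11.9% of all genes tested). They became 16 of 122 (13.1%, against 11.3%) when genes needed a mean of at least 5 FPKM, which tests fewer genes. With 1 library left out there were 31 to 37 (12.6% to 15%, against 8.89% to 16.8%). The all-gene share was the larger without aged replicate 4 (13.2% against 13%) and without young replicate 5 (16.8% against 15%). Without aged replicates 1 and 2 together there were 37 (15%, against 7.49%). With a replicate block there were 32 (13%, against 9.66%), and with voom on recovered fragments 31 (12.6%, equal to the 12.6% over all genes). Same-numbered libraries did not deviate together (correlations from -0.158 to 0.054), so the numbers are not treated as pairing the samples. No member passed the adjusted threshold in any setting run (0 to 0 with 1 library left out). The 7 of 247 members without overlap became 3 of 122 at a mean of at least 5 FPKM and 4 of 247 with TPM scaling. The share over all genes was not worked out for either setting. With 1 library left out there were 8 to 14, against 3.36% to 7.96% of all genes. Without aged replicates 1 and 2 together there were 24, against 5.43% of all genes. Smaller groups overlap less often by construction, and the cause of the change with TPM was not tested. The 1 member listed at 0 in some library became 4 when at most 1 fragment was allowed, and the 56 that overlap another gene became 20 on the same strand only. Of 15 named members at unadjusted p under 0.05, 14 stayed there in every setting in which they were tested, and AABR07024825.1 did not in 6. Low fragment counts limit the precision of most members.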
